A study of Mus musculus with 4 samples.

Results

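The receptors for serotonin, dopamine, noradrenaline and acetylcholine were followed in the amygdala of mice with and without the P2X7 receptor. The genes were taken by name, as every gene on the array whose name begins as a serotonin receptor (Htr1 to Htr7), dopamine receptor (Drd1 to Drd5), adrenergic receptor (Adra1, Adra2, Adrb), muscarinic receptor (Chrm1 to Chrm5) or nicotinic receptor subunit (Chrna, Chrnb, Chrnd, Chrne, Chrng). This gave 48 genes with 71 probes, of 28090 gene names and 41174 transcript probes on the array. Of the 71 probes, 45 stood well clear of background on 3 or 4 arrays in some group and were tested, and these stand for 33 genes.

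The 4 groups were male C57BL/6J mice of 10 weeks. They were wild type injected with saline, wild type injected with lipopolysaccharide (LPS), P2X7R knockout injected with saline, and P2X7R knockout injected with LPS. LPS, from the outer membrane of Gram-negative bacteria, sets off the innate immune response, and the labels give its intraperitoneal dose both as 7.5 µg per mouse and as 250 µg/kg. The P2X7 receptor is an ATP-gated ion channel of microglia and other cells. The whole amygdala was taken 6 h after the injection, and each group held 4 mice and 4 single-colour arrays of Cy3-labelled cRNA. The labels do not tie arrays to mice, so p-values here measure the spread between arrays.

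Monoamine receptors and muscarinic receptors are mostly G-protein-coupled. Those that couple to Gs raise cyclic AMP, those that couple to Gi lower it, and those that couple to Gq release calcium from internal stores. The serotonin Htr3 receptors and the nicotinic receptors are different, being ion channels built from several subunits and opened by the transmitter itself. In the amygdala these receptors set the excitability of principal cells and interneurons, and they take part in fear, arousal and stress behaviour.

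Several of the results turn on pairs of probes for the same gene that gave unlike values, so the start of each of those probes is shown, 5′ to 3′. The first 30 of the 60 bases are printed in lower case, with no part marked, and coordinates are on mouse build mm9 as the array's annotation gives them. The array's annotation assigns the first Chrm1 probe to transcript variant 1 and the other Chrm1 probe to transcript variant 2.
Chrm1 at chr19:8739471-8752391, 5.17 higher in knockout after saline on the log2 scale: tggacaagctggatgccaaggtgatgccct
Chrm1 at chr19:8755342-8755401, 0.71 higher: tggtaagggaagttcccaaagcctaatgaa
Adra1a at chr14:67346728-67346787, 0.97 higher: tgaagaaaatcaccaagttccaaccattaa
Adra1a at chr14:67352013-67352072, called lower, with no knockout array well above background: aatatagagtcatcgatagctcaaaagaca
Adra1b at chr11:43588814-43588873, 0.70 higher: caatgctggccctttgatagggtcggaaaa
Adra1b at chr11:43648881-43648940, a difference of −0.30: ggtcatcctggtcatgtactgccgagtcta
Drd2 at chr9:49215761-49215820, a difference of −2.31: ccaactctagtgtgaatccctactttccat
Drd2 at chr9:49215047-49215106, a difference of −1.25: atcctgaatatacactgtgactgcaacatc
Each probe of a gene can report another stretch or transcript form of it, so the probes were tested one by one and not averaged.

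Each level below is the log2 intensity of a probe with the array's own 75th percentile set to 0. Differences between groups are also in log2 and carry the model's standard error (SE), with n = 4 arrays per group. A probe was called where its adjusted p in limma was under 0.05, adjusted by the Benjamini-Hochberg method over all 28347 tested probes of the array. A level belongs to its own probe and was not ranked against that of another probe. In whole tissue, fewer cells of a type and less RNA per cell cannot be told apart.

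Wild-type arrays were brighter, with a 75th percentile of intensity of 581.3 to 1164.7 against 345.9 to 614.0 for the knockout arrays. All wild-type arrays lay on 2 slides of 1 scanning session and all knockout arrays on 2 slides of another, so genotype and session cannot be told apart. Wild-type saline arrays 1 and 2 stood apart from arrays 3 and 4: the mean level of 16 LPS-response genes was 1.23 and 1.29 on them, −3.84 and −3.92 on the other two, and −0.24 to 1.76 on the wild-type LPS arrays. The mean level of the hippocampus markers was −1.21 and −1.14 on arrays 1 and 2 against −0.27 and −0.14, that of the oligodendrocyte markers 0.32 and 0.33 against 1.53 and 1.52, and that of the choroid plexus markers −4.20 and −3.94 against −1.70 and −1.49. Arrays 1 and 2 lay on one wild-type slide and arrays 3 and 4 on the other. Where leaving out arrays 1 and 2, or knockout saline array 1, ended or gave a saline call of a receptor described here, that value is given beside the result.

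Region markers could not test the tissue label, since those of other regions were measured about as often. Of those listed for the central and medial amygdala 9 of 10 were measured, as were 10 of 10 for cortex and basolateral amygdala. The same held for 9 of 10 hypothalamus, 11 of 12 hippocampus and 13 of 14 striatum markers. Several marker lists differed between genotypes after saline, where 26.4% of the array was called higher and 25.7% lower. Of the cortex and basolateral amygdala markers 6 of 10 were lower in knockout and 0 higher (median −1.08), of the oligodendrocyte markers 7 of 13 were lower and 0 higher (median −1.07), and of 9 hypothalamus markers 5 were higher and 1 lower (median 0.87). Without wild-type saline arrays 1 and 2, 36.5% of the array was called. Then 3 of the cortex and basolateral amygdala markers and 9 of the oligodendrocyte markers were lower and 0 higher. Of the hypothalamus markers 3 were then higher and 1 lower. The part of these marker genes in the receptor differences was not tested. For P2rx7 itself the saline difference was −1.51 ± 0.25 (limma, adjusted p = 2e-04) at its brighter probe, and 0.24 ± 0.29 (adjusted p = 0.515) at its other probe.

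The families differed in how much of them the array could measure. Among 14 serotonin receptor genes 11 had a tested probe, as had 7 of 8 adrenergic, 4 of 5 dopamine, 3 of 5 muscarinic and 8 of 16 nicotinic genes. Over all families 19 probes lay well above background on all 16 arrays, while 16 probes did so on no array. The 15 genes with no tested probe were Htr1b, Htr3b, Htr4, Drd3, Adra2b, Chrm2, Chrm5, Chrna2, Chrna3, Chrna6, Chrna9, Chrnb3, Chrnb4, Chrnd and Chrng. Chrnb4 and Chrna3 form the receptor of autonomic ganglia, and Chrnd and Chrng belong to the muscle receptor. For these 15 genes no comparison was made, and nothing is said of whether they changed.

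The first comparison asked whether LPS altered the receptors within a genotype. In knockout, 0 of 45 receptor probes were called by limma, against 862 of 28347 probes or 3.04% of the array. In wild type, 0 of 45 were called, and 0% of the array was. At an unadjusted p under 0.05 the counts were 11 of 45 receptor probes in knockout, where 14.1% of the array passed, and 7 of 45 in wild type, where 6.3% passed. The median LPS difference of the receptor probes was −0.15 in knockout (all probes −0.08) and −0.08 in wild type (all probes −0.03).

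The LPS-response genes moved on the same arrays. Of the 16 in that list, 15 rose in knockout, with a median of 4.47, and 0 of 16 were called in wild type, where the median was 1.85. Receptor differences in knockout ran from −1.05 to 0.77, and 44 of 45 lay within 1 log2 unit of 0.

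The lowest difference in knockout belonged to Chrnb1, the beta subunit of the muscle-type nicotinic receptor. Its level was −5.26, −5.98, −5.64 and −5.10 in knockout saline and −5.81, −6.93, −6.26 and −7.17 in knockout LPS. The groups overlapped, and on none of these 8 arrays did the probe lie well above background. The fitted value was −1.05 ± 0.28 (adjusted p = 0.0535), and since both groups lay in the background it is not given as a fold.

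Chrm3, a Gq-coupled muscarinic receptor, came as near to the threshold at the probe at chr13:10119735-10119794. The level there was −3.96, −3.33, −3.77 and −3.59 in knockout saline and −4.44, −4.40, −4.86 and −3.95 in knockout LPS. Only the highest LPS array reached the saline range, and the difference was −0.75 ± 0.20 (adjusted p = 0.0533). Chrnb1 was called when knockout saline array 2 or knockout LPS array 1 was left out, and Chrm3 without knockout saline array 1 or knockout LPS array 4. The dimmer Adrb1 probe was called as well without knockout saline array 2, with −0.83 ± 0.19 (adjusted p = 0.0419). Both Chrnb1 and Chrm3 were called in knockout with the slide as a fixed block, Chrnb1 with adjusted p = 0.0217 and Chrm3 with 0.044. Chrna1, the alpha subunit of the muscle-type receptor, was called in that model as well (adjusted p = 0.0154). Without the slide in the model it was not called, at −0.82 ± 0.26 (adjusted p = 0.128). Its probe was well above background on only 1 of 4 knockout saline arrays and on no knockout LPS array, so no fold is given.

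The main brain nicotinic subunits were not called with LPS either. Chrnb2, which with Chrna4 forms the main high-affinity nicotinic receptor of the brain, differed in knockout by −0.02 ± 0.19, with a 95% interval of −0.42 to 0.38. In wild type the difference of Chrnb2 was 0.01 ± 0.19, with an interval of −0.39 to 0.41. Its level was 0.11, −0.16, −0.10 and 0.10 in wild-type saline, −0.01, 0.20, 0.08 and −0.28 in wild-type LPS, 0.13, −0.68, −0.09 and 0.07 in knockout saline, and −0.19, −0.08, −0.02 and −0.36 in knockout LPS. All 4 groups overlapped for this subunit. For Chrna4 the difference in knockout was −0.49 ± 0.22, with an interval of −0.97 to −0.02 that leaves out 0 before adjustment (adjusted p = 0.333), and in wild type it was −0.14 ± 0.22.

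**Figure D1:**
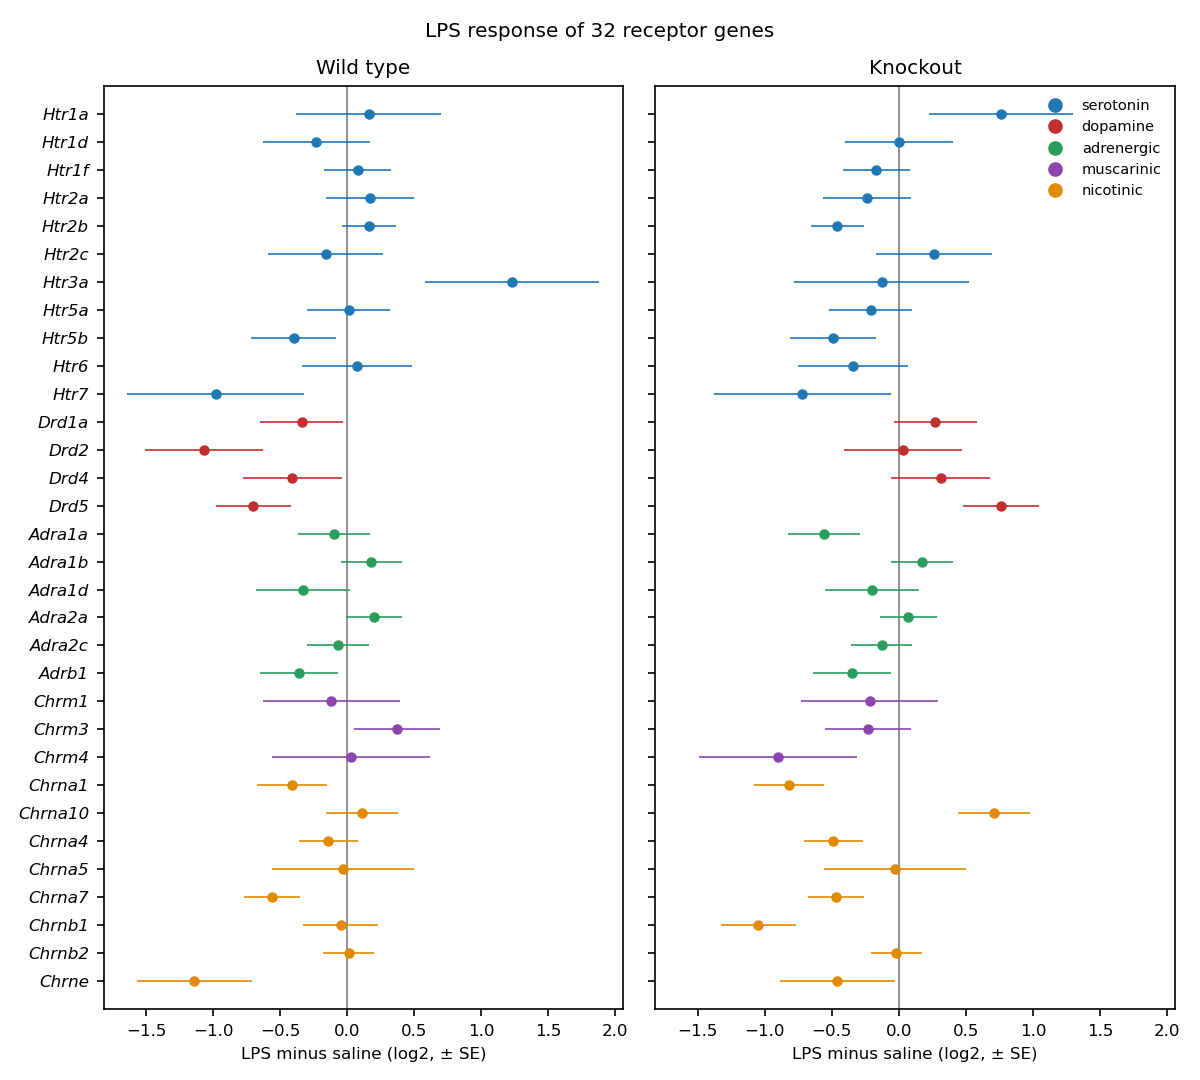
Log2 difference, LPS minus saline, for 32 receptor genes with a tested probe, 1 probe per gene, in wild type and in knockout; points are the differences of group means of 4 arrays and bars the SE of the model. Over all receptor probes the wild-type differences lie between −1.14 and 1.23 and those in knockout between −1.05 and 0.77, and no probe was called by limma in either genotype.

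The wild-type LPS comparison depended on saline arrays 1 and 2. Without them, 3 of 45 receptor probes were called in wild type, against 2.3% of all probes, and all 3 fell. Those were Chrne, the epsilon subunit of the adult muscle-type nicotinic receptor, Drd5, a Gs-coupled dopamine receptor, and Chrm1, the Gq-coupled muscarinic receptor of forebrain principal cells. They are named because of their values in this alternative.

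Drd5 had a level of −3.49, −3.33, −2.35 and −2.28 in wild-type saline and −3.57, −3.28, −3.86 and −3.55 in wild-type LPS. Saline arrays 1 and 2 lay within the LPS range and arrays 3 and 4 above it. The LPS difference was −0.70 ± 0.28 (adjusted p = 0.733) with all arrays and −1.25 ± 0.26 (adjusted p = 0.0225) without those 2. In knockout the level of Drd5 was −3.99, −3.39, −3.50 and −3.0 after saline and −2.56, −2.52, −2.64 and −3.09 after LPS. There the LPS arrays tended to lie above the saline arrays, with an overlap of 1 array, and the difference of 0.76 ± 0.28 did not pass (adjusted p = 0.214). The LPS response of Drd5 in knockout minus that in wild type was 1.46 ± 0.40 (adjusted p = 0.36), and 2.01 ± 0.34 (adjusted p = 0.175) without the 2 arrays.

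Chrne had a level of −4.69, −5.18, −2.68 and −3.98 in wild-type saline and −5.42, −4.84, −5.84 and −5.0 in wild-type LPS. Saline arrays 3 and 4 lay above every LPS array, and arrays 1 and 2 lay among or near them. The LPS difference in wild type was −1.14 ± 0.43 (adjusted p = 0.71) with all arrays and −1.94 ± 0.42 (adjusted p = 0.0247) without saline arrays 1 and 2. For Chrm1 at its brighter probe the difference moved from −0.12 ± 0.51 (adjusted p = 1) to −1.34 ± 0.27 (adjusted p = 0.0178). That Chrm1 probe was well above background on only 2 of 4 wild-type saline arrays and 1 of 4 wild-type LPS arrays. The other Chrm1 probe was not called without saline arrays 1 and 2, at −0.50 (adjusted p = 0.402). The LPS-response genes and the hippocampus, oligodendrocyte and choroid plexus markers separate the same saline arrays, as given above, and their part in these 3 results was not tested.

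The difference between the LPS responses of the genotypes was tested directly. Of 45 receptor probes 0 were called by limma, against 1 probe or 0.00353% of the array, and 5 of 45 had an unadjusted p under 0.05 where 6.41% of all probes did. Dopamine receptors had a median of 0.72 in this comparison over 5 probes and serotonin receptors −0.15 over 12, beside −0.02 for all probes. The smallest adjusted p was that of Chrm3 at chr13:10119735-10119794, with −1.24 ± 0.28 (adjusted p = 0.262).

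The next comparison set knockout against wild type within each treatment. After saline, 21 of 45 receptor probes were called, or 46.7%, against 52.1% of the array. After LPS, 19 of 45 were called, or 42.2%, against 48.4%. The receptors thus differed between genotypes about as often as any probe on this array did. After saline 10 were higher in knockout (22.2%, array 26.4%) and 11 lower (24.4%, array 25.7%), and the 2 groups of arrays did not overlap for 16 probes (35.6%, array 47.5%). After LPS 8 were higher (17.8%, array 23.9%) and 11 lower (24.4%, array 24.5%), and 21 did not overlap (46.7%, array 52.3%). Called the same way after both treatments were 13 of 45, or 28.9%, against 38.9% of the array. Without wild-type saline arrays 1 and 2, 13 receptor probes were called after saline (28.9%, array 36.5%), 3 of them higher and 10 lower in knockout.

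The counts by family stand beside 26.4% of the array called higher and 25.7% lower after saline, and 23.9% and 24.5% after LPS. Without wild-type saline arrays 1 and 2, 36.5% of the array was called after saline. The 6 muscarinic probes stand for only 3 genes. Of these probes 5 were called higher after saline and 0 lower, with a median of 0.70, and by the brightest probe 2 of the 3 genes were higher. Without wild-type saline arrays 1 and 2 only 2 of the 6 were called higher. After LPS 2 of the 6 were higher and 1 lower. Serotonin receptors had 1 higher and 3 lower of 12 probes after saline, dopamine receptors 1 higher and 2 lower of 5, adrenergic receptors 2 higher and 3 lower of 12, and nicotinic subunits 1 higher and 3 lower of 10. Median differences after saline were −0.12, −0.60, −0.04 and −0.30 in those 4 families. Without the 2 arrays those counts became 0 higher and 2 lower, 0 higher and 3 lower, 1 higher and 2 lower, and 0 higher and 3 lower.

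**Figure D2:**
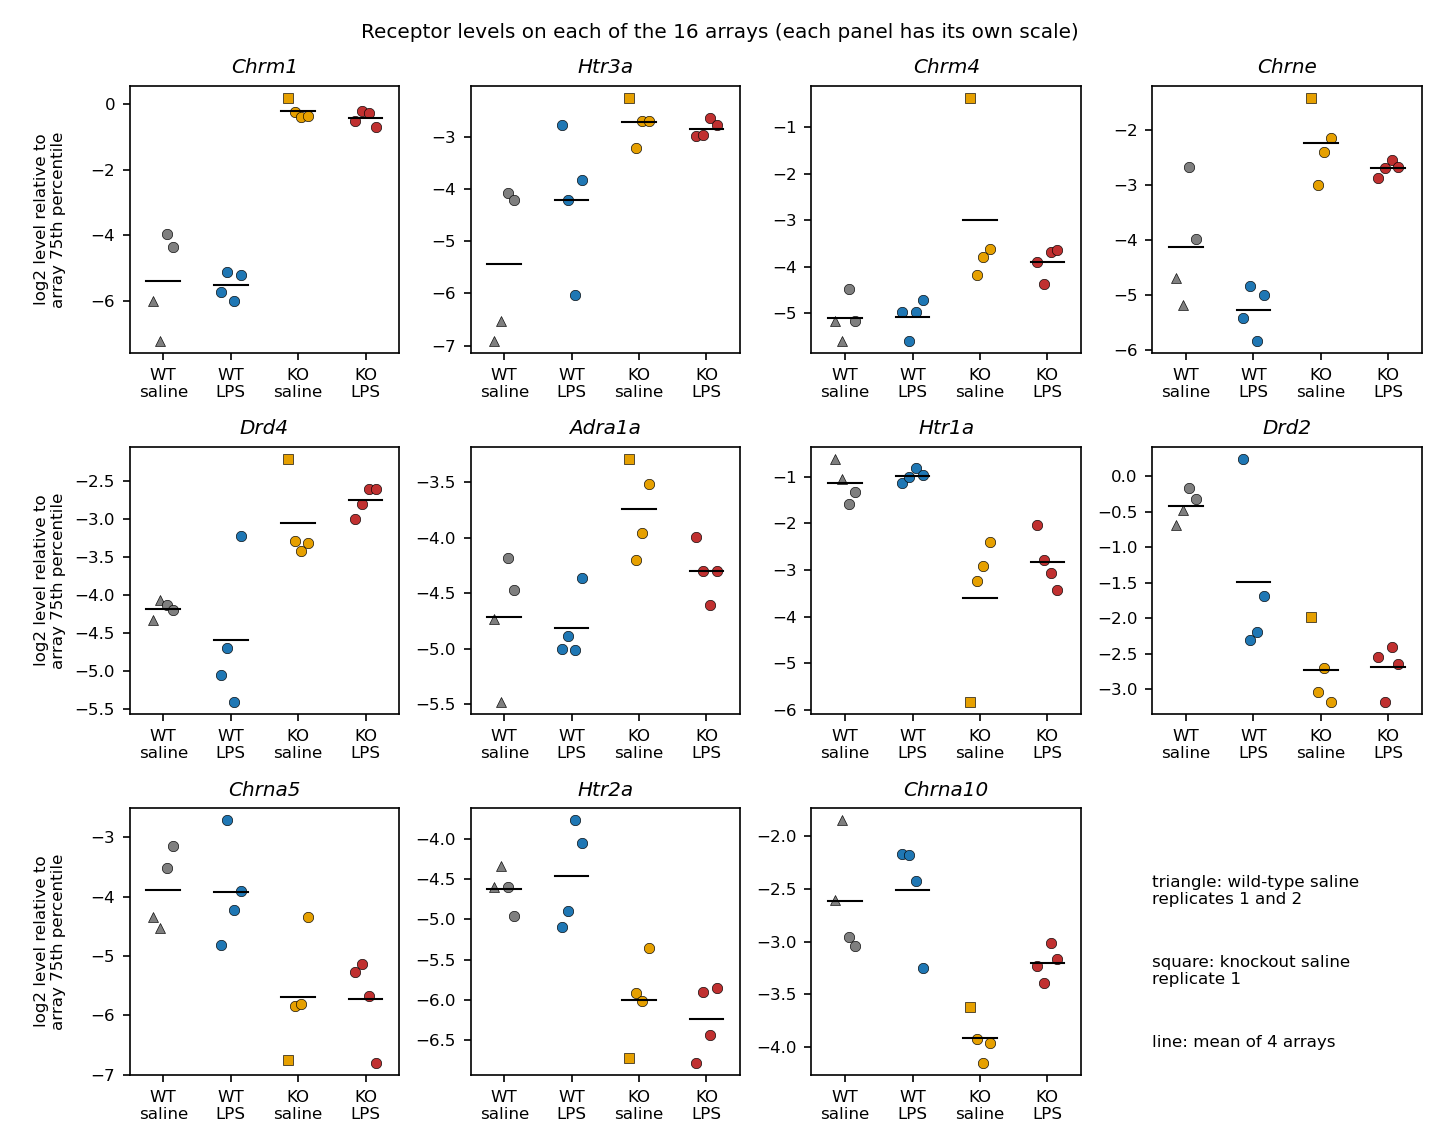
Level of 11 receptor genes on each array (log2, with the array's 75th percentile at 0, 1 panel per gene, each with its own vertical scale), with a line at the mean of each group of 4 arrays; triangles mark wild-type saline arrays 1 and 2, and squares knockout saline array 1. Chrm1 lies between −7.20 and −3.97 on the wild-type arrays and between −0.71 and 0.17 on the knockout arrays, while the other genes differ less.

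Among muscarinic receptors, Chrm1 had the largest difference of any receptor probe. At chr19:8739471-8752391 its level was −5.99, −7.20, −3.97 and −4.34 in wild-type saline, −5.71, −5.10, −5.99 and −5.19 in wild-type LPS, 0.17, −0.25, −0.39 and −0.37 in knockout saline, and −0.51, −0.22, −0.28 and −0.71 in knockout LPS. Every knockout array lay far above every wild-type array, and within wild type the probe was well above background on only 3 of 8 arrays. The difference was 5.17 ± 0.51 after saline (adjusted p = 2.24e-06) and 5.07 ± 0.51 after LPS (adjusted p = 2.89e-06), and 3.95 after saline without wild-type arrays 1 and 2. The other Chrm1 probe, at chr19:8755342-8755401, differed by 0.71 ± 0.22 after saline (adjusted p = 0.0131), by 0.44 (adjusted p = 0.186) without wild-type arrays 1 and 2, and by 0.28 ± 0.22 after LPS (adjusted p = 0.308). The gap between the 2 Chrm1 probes was thus 4.46 log2 units after saline and 4.79 after LPS, and its size rests on dim wild-type values of the first probe.

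Chrm4, a Gi-coupled muscarinic receptor of striatal and other forebrain neurons, had a level of −5.17, −5.59, −4.47 and −5.17 in wild-type saline and −0.38, −4.18, −3.78 and −3.62 in knockout saline at chr2:91768397-91768456. The groups did not overlap, and knockout array 1 stood far above the other 3. The difference of 2.11 ± 0.59 (adjusted p = 0.00809) was 1.24 (adjusted p = 0.00199) without that array, and 1.83 (adjusted p = 0.0758) without wild-type arrays 1 and 2. After LPS the level was −4.98, −5.59, −4.98 and −4.72 in wild type and −3.90, −4.36, −3.68 and −3.63 in knockout. Those groups were clear of each other too, but the difference of 1.17 ± 0.59 did not pass (adjusted p = 0.115). The other Chrm4 probe was higher in knockout after both treatments, by 0.68 ± 0.23 (adjusted p = 0.0223) and 0.78 ± 0.23 (adjusted p = 0.0123). Without wild-type arrays 1 and 2, however, its saline difference was 0.31 (adjusted p = 0.286). Its LPS difference was not called with the normexp correction, at 0.52 (adjusted p = 0.241).

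Chrm3 at its brighter probe had a level of −4.47, −4.74, −3.24 and −3.31 in wild-type saline, −3.74, −3.77, −3.85 and −2.92 in wild-type LPS, −4.27, −3.79, −3.83 and −3.75 in knockout saline, and −4.04, −4.32, −3.80 and −4.42 in knockout LPS. The genotypes overlapped after both treatments, with differences of 0.02 ± 0.32 and −0.57 ± 0.32. With the normexp correction the saline difference of this probe was called, at 1.16 (adjusted p = 0.00389). At the other Chrm3 probe the difference was 0.55 ± 0.20 after saline (adjusted p = 0.0302) and −0.69 ± 0.20 after LPS (adjusted p = 0.0097), so its direction turned with the treatment. With the normexp correction the LPS difference was −0.01 (adjusted p = 0.984). As given above, the difference of the 2 LPS responses of that probe did not pass its own test.

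Among nicotinic subunits, Chrne was higher in knockout. At chr11:70428391-70428450 its level was −1.42, −3.01, −2.40 and −2.15 in knockout saline and −2.88, −2.70, −2.55 and −2.67 in knockout LPS, beside the wild-type values given above. After saline 1 wild-type array, at −2.68, reached the knockout range, and after LPS the genotypes were clear of each other. In wild-type LPS the probe was well above background on only 1 of 4 arrays, so the size of the LPS difference rests on dim values. The difference was 1.89 ± 0.43 (adjusted p = 0.0022) after saline and 2.58 ± 0.43 (adjusted p = 0.000233) after LPS. Without wild-type arrays 1 and 2 the saline difference was 1.09 (adjusted p = 0.0563).

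Chrna5, an accessory subunit of neuronal nicotinic receptors, lay at −4.34, −4.53, −3.51 and −3.15 in wild-type saline, −4.81, −2.71, −4.23 and −3.91 in wild-type LPS, −6.75, −5.84, −5.81 and −4.35 in knockout saline, and −5.27, −5.13, −5.67 and −6.80 in knockout LPS. The genotypes overlapped by 1 knockout array after saline and not at all after LPS, and in knockout the probe was well above background on only 2 of 8 arrays. The difference was −1.80 ± 0.53 after both saline (adjusted p = 0.0103) and LPS (adjusted p = 0.0111). With the normexp background correction it was not called, at 0.68 after saline (adjusted p = 0.089) and −0.35 after LPS (adjusted p = 0.468).

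Chrna10, best known from the receptor of cochlear hair cells, lay at −2.61, −1.85, −2.96 and −3.04 in wild-type saline and −3.62, −3.92, −4.15 and −3.96 in knockout saline. All knockout arrays were below all wild-type arrays. The difference was −1.30 ± 0.27 (adjusted p = 0.00111) after saline and, with overlapping groups, −0.69 ± 0.27 (adjusted p = 0.0452) after LPS. After LPS the level was −2.17, −2.18, −2.43 and −3.25 in wild type and −3.23, −3.39, −3.01 and −3.17 in knockout. With the normexp correction the sign turned, to 0.68 after saline (adjusted p = 0.0706) and 0.03 after LPS (adjusted p = 0.953). Leaving out 11 different single arrays, one at a time, each ended the call after LPS.

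Without the normexp correction the main brain subunits differed less between genotypes. Chrnb2 differed by −0.13 ± 0.19 after saline, with a 95% interval of −0.53 to 0.26, and by −0.16 after LPS. With the normexp correction Chrnb2 was called lower after saline, at −0.49 (adjusted p = 0.042). Chrna4 at its brighter probe lay at −3.23, −3.42, −2.46 and −2.56 in wild-type saline, −3.07, −3.04, −3.14 and −2.97 in wild-type LPS, −2.30, −2.99, −2.90 and −2.65 in knockout saline, and −3.48, −3.25, −3.17 and −2.92 in knockout LPS. These groups overlapped, with differences of 0.20 after saline and −0.15 after LPS, neither called. With the normexp correction this probe was called higher after saline, at 0.62 (adjusted p = 0.0352). The other Chrna4 probe, at chr2:180757309-180757368, was lower in knockout by −0.51 (adjusted p = 0.0409) after saline and −0.66 (adjusted p = 0.0118) after LPS, although with the normexp correction the saline difference was 0.51 (adjusted p = 0.114). Without knockout saline array 1 it was −0.50 and no longer called (adjusted p = 0.0558).

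Chrna7, which forms a calcium-permeable receptor of identical subunits, lay at −3.42, −3.02, −2.69 and −2.60 in wild-type saline, −3.69, −3.13, −3.78 and −3.38 in wild-type LPS, −2.07, −2.53, −2.60 and −2.72 in knockout saline, and −3.03, −2.93, −2.96 and −2.88 in knockout LPS. The genotypes overlapped after saline and were clear of each other after LPS. Its difference was 0.45 ± 0.21 after saline (adjusted p = 0.0802) and 0.54 ± 0.21 after LPS (adjusted p = 0.0418). The LPS call was ended by 7 different single arrays when left out, at 0.45 to 0.58. With the normexp correction Chrna7 was called after saline, at 0.99 (adjusted p = 0.00177), and not after LPS, at 0.38 (adjusted p = 0.223). Chrnb1 was called lower in knockout after LPS (adjusted p = 0.000575), with levels of −4.82, −5.33, −5.39 and −4.78 in wild type beside the knockout values above. The groups did not overlap, but only 2 wild-type arrays and no knockout array were well above background, and the bound gave no fold over 1. With the normexp correction the Chrnb1 difference after LPS was 0.14 (adjusted p = 0.783). After saline Chrnb1 was not called (adjusted p = 0.173), but with that correction it was 1.41 higher in knockout (adjusted p = 0.00204). Chrna1 differed by 0.13 ± 0.26 after saline and −0.28 ± 0.26 after LPS, neither called. With the normexp correction Chrna1 was 1.45 higher in knockout after saline (adjusted p = 0.00136).

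Among dopamine receptors, Drd4, a Gi-coupled receptor, was higher in knockout. At chr7:148480683-148480742 its level was −4.33, −4.07, −4.13 and −4.20 in wild-type saline, −5.05, −4.70, −5.41 and −3.22 in wild-type LPS, −2.21, −3.29, −3.42 and −3.31 in knockout saline, and −3.0, −2.80, −2.60 and −2.60 in knockout LPS. The genotypes did not overlap after either treatment, and in wild-type LPS the probe was well above background on 2 of 4 arrays. The difference was 1.12 ± 0.37 (adjusted p = 0.0194) after saline and 1.84 ± 0.37 (adjusted p = 0.000915) after LPS. The saline call was lost without knockout array 1, at 0.84 (adjusted p = 0.0658), and without wild-type arrays 1 and 2, at 1.11 (adjusted p = 0.0876).

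Drd2, the Gi-coupled receptor of indirect-pathway striatal neurons, was lower in knockout. Its brighter probe lay at −0.69, −0.48, −0.17 and −0.32 in wild-type saline, 0.24, −2.31, −2.20 and −1.69 in wild-type LPS, −1.99, −3.04, −2.70 and −3.18 in knockout saline, and −2.55, −3.18, −2.40 and −2.65 in knockout LPS. Wild-type saline arrays were all above the knockout arrays, while in wild-type LPS 1 array was high and 3 lay just above the knockout range. The difference was −2.31 ± 0.44 (adjusted p = 0.000536) after saline and −1.21 ± 0.44 (adjusted p = 0.0326) after LPS, and −0.63 (adjusted p = 0.0853) after LPS without wild-type LPS array 1. The LPS call was also lost without knockout LPS array 2 or 4, at −1.05 and −1.22. With the normexp correction neither difference was called, at −0.80 after saline (adjusted p = 0.0673) and −0.64 after LPS (adjusted p = 0.194). The other Drd2 probe differed by −1.25 (adjusted p = 0.00653) after saline, or 0.39 with the normexp correction (adjusted p = 0.326), and after LPS by −0.57 (adjusted p = 0.179).

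Some genes of the striatum, which borders the amygdala, were also lower in knockout. Of 14 listed striatal markers 13 were tested, of which 9 were lower in knockout after saline (array 25.7%) and 5 after LPS (array 24.5%), and none was higher. The list holds no receptor gene of the families above, and some of its genes, such as Ppp1r1b and Adcy5, are also among the signalling partners given further on. The mean level of the list was 0.42 to 1.33 in wild-type saline, −0.31 to −0.14 in knockout saline and −0.16 to 0.02 in knockout LPS. By array it was 0.42, 0.89, 1.33 and 1.29 in wild-type saline and 1.47, 0.32, 0.49 and 0.48 in wild-type LPS. The Drd2 levels of the same arrays are given above in the same order. The part of the listed striatal genes in the Drd2 result was not tested.

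Drd1, named Drd1a on the array and Gs-coupled, lay at 0.04, 0.02, 0.44 and 0.59 in wild-type saline, 0.73, −0.17, −0.05 and −0.77 in wild-type LPS, −1.14, 0.15, −0.07 and 0.05 in knockout saline, and 0.02, 0.13, 0.02 and −0.11 in knockout LPS. The groups overlapped in both treatments, and the knockout arrays were close together apart from saline array 1. The difference was −0.53 (adjusted p = 0.159) after saline, −0.23 without knockout array 1, and 0.08 after LPS. With the normexp correction Drd1 was called lower after saline, at −0.65 (adjusted p = 0.0277). Drd5 differed by −0.60 (adjusted p = 0.086) after saline, or −1.15 (adjusted p = 0.00502) without wild-type arrays 1 and 2. After LPS Drd5 was higher in knockout, by 0.86 (adjusted p = 0.0209), but with the normexp correction it was not called, at 0.49 (adjusted p = 0.199).

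Among serotonin receptors, Htr1a, the Gi-coupled receptor that also serves as autoreceptor of raphe neurons, was lower in knockout. At chr13:106237236-106237295 it lay at −0.62, −1.04, −1.58 and −1.32 in wild-type saline, −1.13, −1.0, −0.82 and −0.95 in wild-type LPS, −5.83, −3.23, −2.92 and −2.39 in knockout saline, and −2.04, −2.79, −3.06 and −3.43 in knockout LPS. No knockout array reached a wild-type array, and knockout saline array 1 was the lowest. The difference was −2.45 ± 0.54 (adjusted p = 0.00157) after saline and −1.85 ± 0.54 (adjusted p = 0.0103) after LPS. It was −1.71 (adjusted p = 0.000417) after saline without knockout array 1 and −2.14 (adjusted p = 0.0261) without wild-type arrays 1 and 2. With the normexp correction it was 0.05 after saline (adjusted p = 0.878) and −0.60 after LPS, neither called.

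Htr2a, the Gq-coupled receptor on which classical hallucinogens act, was not well above background on any knockout array. Its level was −4.59, −4.33, −4.60 and −4.96 in wild-type saline, −5.10, −4.90, −3.76 and −4.05 in wild-type LPS, −6.73, −5.92, −6.02 and −5.35 in knockout saline, and −6.79, −5.90, −6.44 and −5.86 in knockout LPS. The genotypes did not overlap. Htr2a was at least 1.23-fold lower in knockout after saline (adjusted p = 0.00292) and at least 1.42-fold lower after LPS (adjusted p = 0.000485), except that with the normexp correction it was 1.26 log2 units higher after saline (adjusted p = 0.00524) and 0.19 higher after LPS (adjusted p = 0.719). The bound sets the wild-type mean against the higher of the knockout signal and the lowest signal well above background on that array.

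Htr3a, the ion-channel serotonin receptor of a class of inhibitory interneurons, was higher in knockout after saline. At chr9:48707582-48707641 it lay at −6.91, −6.53, −4.08 and −4.22 in wild-type saline, −2.77, −4.21, −6.04 and −3.82 in wild-type LPS, −2.26, −3.22, −2.69 and −2.70 in knockout saline, and −2.98, −2.96, −2.65 and −2.78 in knockout LPS. Wild-type arrays spread widely and knockout arrays lay close together, with no overlap after saline and an overlap of 1 wild-type array after LPS. In wild-type saline only 2 of 4 arrays were well above background. The difference was 2.72 ± 0.65 (adjusted p = 0.00283) after saline and 1.37 ± 0.65 (adjusted p = 0.0938) after LPS. Without wild-type arrays 1 and 2 the saline difference was 1.44 (adjusted p = 0.0743).

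Htr2c, the Gq-coupled receptor that is very abundant in choroid plexus, lay at −0.33, −0.63, −0.23 and −0.39 in wild-type saline, −0.94, −0.23, −0.29 and −0.77 in wild-type LPS, −1.88, 0.59, 0.75 and 0.72 in knockout saline, and 0.47, 0.33, 0.35 and 0.09 in knockout LPS. Knockout saline array 1 was the lowest of all, and the other 7 knockout arrays lay above every wild-type array. The difference was 0.44 (adjusted p = 0.413) after saline with all arrays, 1.08 (adjusted p = 0.000296) without knockout array 1, and 0.86 (adjusted p = 0.112) after LPS. The other Htr2c probe, at chrX:143629642-143629702, was lower in knockout after saline, by −1.67 (adjusted p = 0.0113), but not without wild-type arrays 1 and 2, at −1.37 (adjusted p = 0.105), nor with the normexp correction, at 0.38 (adjusted p = 0.375). It differed by −1.1 (adjusted p = 0.079) after LPS. All 10 listed choroid plexus markers were tested, and 3 were lower in knockout after saline (8 without wild-type arrays 1 and 2) and 5 after LPS, none higher. Their mean level was −4.20 to −1.49 in wild-type saline and −4.79 to −3.48 in knockout saline, and their part in the Htr2c values was not tested.

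The other 7 tested serotonin receptors, Htr1d, Htr1f, Htr2b, Htr5a, Htr5b, Htr6 and Htr7, were not called between genotypes after either treatment. With the normexp correction all 7 were called higher in knockout after saline, from 0.56 (Htr5b, adjusted p = 0.0338) to 1.49 (Htr7, adjusted p = 0.00107). The median of all probes was then 0.51. Without that correction Htr7, a Gs-coupled receptor, had the largest difference of the 7. It was 1.34 ± 0.66 (adjusted p = 0.0995) after saline and 1.61 ± 0.66 (adjusted p = 0.0556) after LPS. Htr7 was called after LPS (adjusted p = 0.0384) when wild-type saline arrays 1 and 2 were left out of the fit. Its level was −5.61, −3.38, −3.16 and −3.45 in wild-type saline and −1.99, −2.66, −2.84 and −2.74 in knockout saline. Those groups did not overlap, and 1 wild-type array was far below the rest.

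Among adrenergic receptors, the 3 Gq-coupled alpha-1 genes differed from one another. Adra1a at its brighter probe lay at −4.73, −5.48, −4.18 and −4.47 in wild-type saline, −5.0, −4.89, −5.01 and −4.36 in wild-type LPS, −3.29, −4.20, −3.96 and −3.51 in knockout saline, and −3.99, −4.30, −4.61 and −4.30 in knockout LPS. The groups overlapped by 1 array after saline and by 1 or more after LPS. It was higher in knockout after saline, by 0.97 ± 0.27 (adjusted p = 0.00809), and by 0.52 without a call after LPS. Without wild-type arrays 1 and 2 the saline difference was 0.58 (adjusted p = 0.117).

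At the other Adra1a probe the direction was opposite. It lay at −5.91, −5.70, −5.50 and −5.36 in wild-type saline and −6.82, −7.08, −7.29 and −6.75 in knockout saline, with no overlap. The probe was kept only through wild-type saline, the group where it was high. Its saline p-value is therefore not independent of that selection. The probe was called lower in knockout after saline (adjusted p = 0.000204) and after LPS (adjusted p = 0.000205). With the normexp correction, however, it was 1.33 higher after saline (adjusted p = 0.00483) and differed by 0.20 after LPS (adjusted p = 0.711). No knockout array lay well above background at this probe, so the fitted values of −1.36 and −1.37 have no sure size, and the bound gave no fold over 1.

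Adra1b at its brighter probe lay at 1.40, 0.96, 1.39 and 1.30 in wild-type saline, 1.87, 1.01, 0.85 and 2.03 in wild-type LPS, 1.95, 1.95, 1.85 and 2.08 in knockout saline, and 2.14, 2.20, 2.19 and 2.00 in knockout LPS. The saline groups did not overlap, and after LPS 1 wild-type array reached the knockout range. It was higher in knockout by 0.70 ± 0.23 (adjusted p = 0.0204) after saline and 0.69 ± 0.23 (adjusted p = 0.0229) after LPS, with 0.61 (adjusted p = 0.112) after saline without wild-type arrays 1 and 2. Leaving out wild-type saline array 2 alone ended the saline call, at 0.60, and the LPS call was lost without wild-type LPS array 2 or 3 or knockout LPS array 2 or 3, at 0.49 to 0.67. With the normexp correction the brighter probe was not called, at 0.59 after saline (adjusted p = 0.11) and 0.79 after LPS (adjusted p = 0.0636). The other Adra1b probe differed by −0.30 (adjusted p = 0.467) after saline. After LPS it was not well above background on any knockout array and was at least 1.21-fold lower in knockout (adjusted p = 0.0113), though with the normexp correction the difference was 0.09 (adjusted p = 0.861). Adra1d was not called after either treatment, with −0.16 ± 0.35 and −0.03 ± 0.35. With the normexp correction Adra1d was called higher after saline, at 0.71 (adjusted p = 0.0462).

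Adra2a, the Gi-coupled autoreceptor of noradrenergic neurons, lay at 2.72, 2.82, 2.47 and 2.58 in wild-type saline, 2.49, 3.14, 2.89 and 2.87 in wild-type LPS, 3.56, 2.72, 2.59 and 2.60 in knockout saline, and 2.83, 3.11, 2.80 and 3.01 in knockout LPS. The groups overlapped, and only knockout saline array 1 stood out. The differences were 0.22 and 0.09, neither called, while a dimmer Adra2a probe at chr19:54121975-54122034 differed by −1.46 (adjusted p = 0.0449) after saline, by −1.48 (adjusted p = 0.138) without wild-type arrays 1 and 2, and by −0.91 after LPS. On that dimmer probe 1 knockout saline array, at −4.37, lay far below the others, which were between −1.78 and −0.58. Adra2c, a related Gi-coupled receptor, differed by −0.45 ± 0.23 after saline and −0.51 ± 0.23 after LPS, neither called, and by −0.63 (adjusted p = 0.0195) after saline without knockout array 1. With the normexp correction both were called, at −0.67 (adjusted p = 0.00587) after saline and −0.52 (adjusted p = 0.0451) after LPS. Both were also called with base composition corrected, at −0.93 (adjusted p = 0.00144) and −0.87 (adjusted p = 0.00232).

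Adrb1, a Gs-coupled beta receptor, lay at 1.92, 1.03, 0.67 and 0.89 in wild-type saline, 1.73, 0.48, 0.26 and 0.59 in wild-type LPS, 1.28, 1.26, 1.01 and 1.26 in knockout saline, and 0.94, 0.84, 0.87 and 0.74 in knockout LPS. The groups overlapped, and differences were 0.07 and 0.08. The other Adrb1 probe, at chr19:56797242-56797301, was lower in knockout by −1.17 (adjusted p = 0.000719) after saline and −1.49 (adjusted p = 0.000119) after LPS, with no overlap. With the normexp correction it was not called, at 0.35 after saline (adjusted p = 0.268) and −0.54 after LPS (adjusted p = 0.133).

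**Figure D3:**
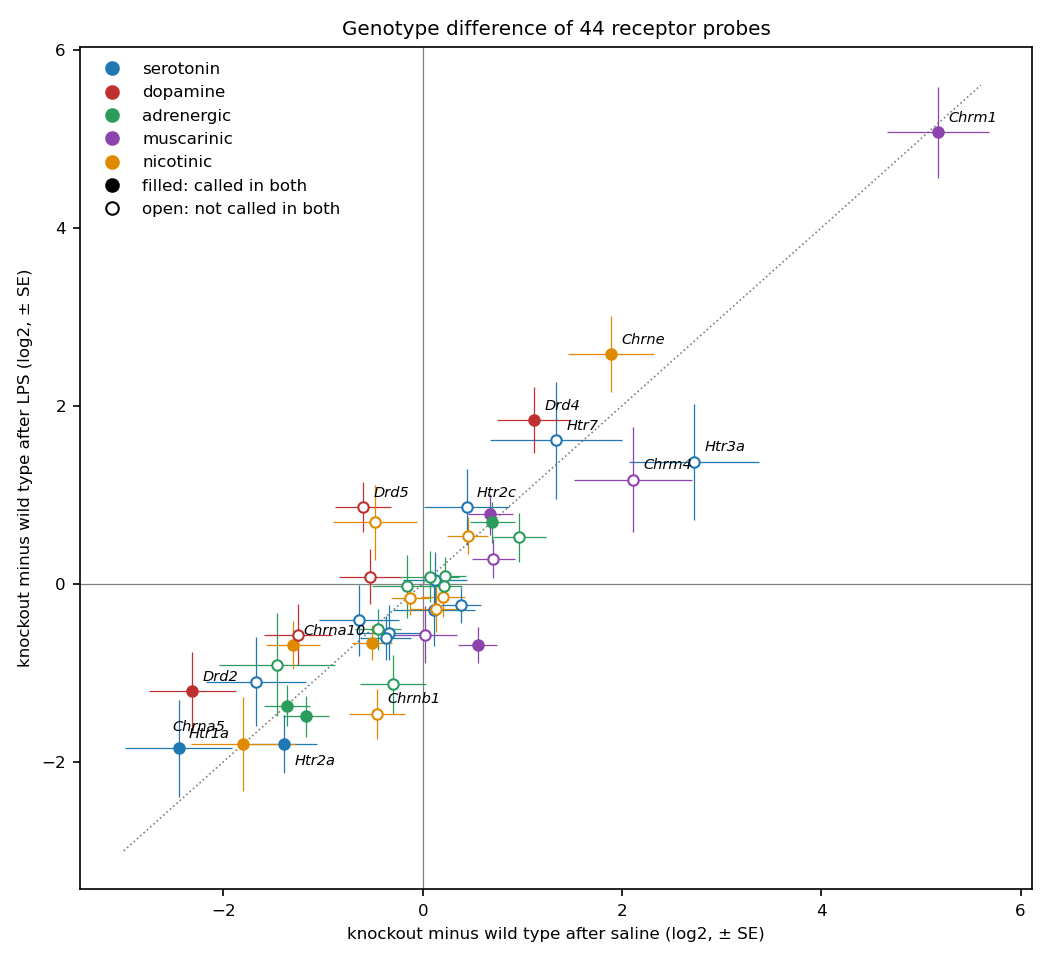
Knockout minus wild type (log2) after saline on the horizontal axis and after LPS on the vertical axis for 44 tested receptor probes, with bars for the SE of the model and filled points where the probe was called after both treatments. The treatments use separate arrays, and the Chrm1 probe lies alone at 5.17 and 5.07.

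Probes of the same gene often gave unlike calls. Of 11 receptor genes with several tested probes, 6 had called and uncalled probes side by side after saline (54.5%, all such genes 56.5%) and 8 after LPS (72.7%, all such genes 56.9%). Calls in opposite directions were found in 1 gene after each treatment (9.09%, all such genes 14.6% after saline and 13.6% after LPS), Adra1a after saline and Adra1b after LPS, in both of which the lower probe was dim in knockout. The median gap between the highest and lowest probe of a gene was 1.24 log2 units after saline and 1.0 after LPS, beside 1.05 and 1.0 over 6330 genes with several tested probes. With 11 genes these shares are coarse, and unlike probes were common over the whole array as well.

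The background correction changed which receptors differed, also among genes for which no normexp value is given above. With the normexp correction of the raw intensity, 31 of 45 receptor probes were called after saline, 27 of them higher and 4 lower in knockout, and 61.8% of the array was called. That correction moved the median difference of all probes after saline from −0.02 to 0.51, so these differences are to be read relative to that shift. After LPS the median moved from −0.03 to 0.13, and 6 receptor probes were called (13.3%, array 31.4%), 4 higher and 2 lower. Some called probes other than the brightest of their gene turned sign with this correction, when read against 0. After saline these were 5 of 9 (Adrb1, Drd2, Htr2c, Chrna4 and Adra1a), and after LPS 2 of 6 (Adra1a and Adra1b). Beside the saline median of 0.51, Adrb1 (0.35), Drd2 (0.39) and Htr2c (0.38) lay below, Chrna4 (0.51) level and Adra1a (1.33) above. Beside the LPS median of 0.13, Adra1b (0.09) lay below and Adra1a (0.20) above. Over the settings compared in full (the background correction, median and quantile scaling, a correction for base composition, the slide as a random block and the omission of wild-type saline arrays 1 and 2), only Chrm1 was called in every one after saline. After LPS Chrm1, Chrne and Drd4 were.

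**Figure D4:**
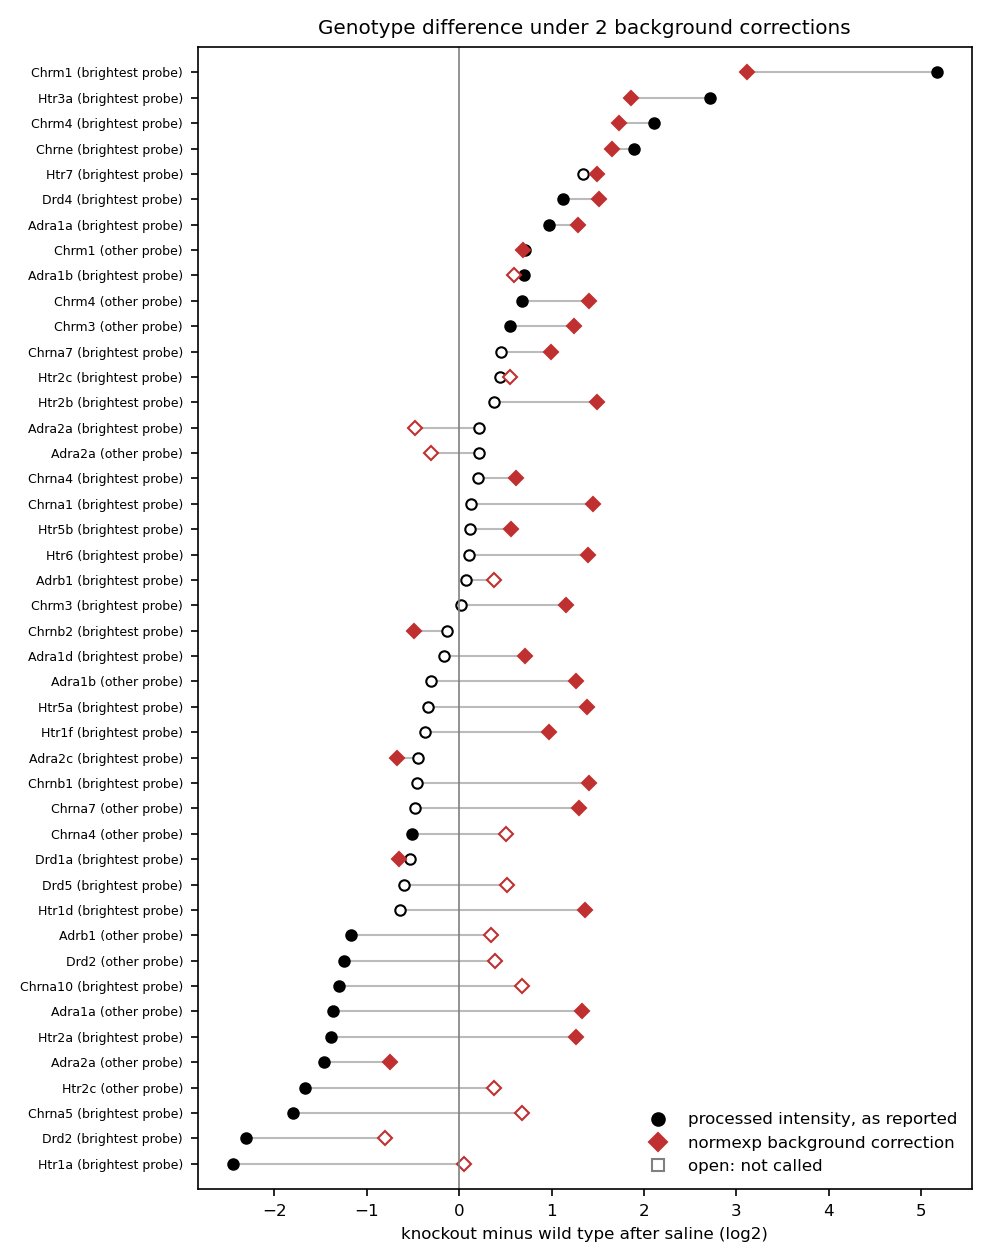
Knockout minus wild type after saline (log2, horizontal axis) for 44 receptor probes, 1 row per probe, with black circles for the scanner's background subtraction, red diamonds for the normexp correction, a grey line joining them, and open symbols where the probe was not called. Htr2a moves from −1.39 to 1.26 and Htr1a from −2.45 to 0.05, while Chrm1 stays higher in knockout, at 5.17 and 3.12.

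Other genes of these transmitter systems were followed in 4 lists. Among 11 tested genes of monoamine and acetylcholine synthesis and packaging, 1 was higher and 7 were lower in knockout after saline (array 26.4% and 25.7%), with a median of −0.92. Without wild-type saline arrays 1 and 2, 0 were higher and 4 lower, with a median of −0.71. After LPS 2 were higher and 4 lower (array 23.9% and 24.5%), with a median of 0.02. Qdpr (−1.58), Pts (−1.50) and Gch1 (−1.42), which make or recycle tetrahydrobiopterin, the cofactor of monoamine synthesis, were lower after saline. Spr, which also makes tetrahydrobiopterin, went the other way and was higher after saline, by 1.16 (adjusted p = 0.00402). It was higher after LPS too, by 0.77 (adjusted p = 0.039), but was not called after saline without the 2 arrays, at 0.75 (adjusted p = 0.0869). Without the 2 arrays Qdpr was still called, at −1.71, while Pts, at −1.01 (adjusted p = 0.0886), and Gch1, at −0.71 (adjusted p = 0.0849), were not. Tph2, the serotonin-forming enzyme of neurons, was called lower too (adjusted p = 0.00814), but no knockout saline array lay well above background, and the bound gave no fold over 1. Gch1 was the only gene of the list called with LPS in knockout, where it rose by 2.52 ± 0.35 (adjusted p = 0.00254), and no gene of the list was called with LPS in wild type.

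Of 7 tested genes of reuptake and breakdown, 2 were higher and 2 lower in knockout after saline, and 0 higher and 2 lower without wild-type arrays 1 and 2 (array 52.1% and 36.5% called). Slc5a7, the choline transporter that feeds acetylcholine synthesis, was lower by −2.73 ± 0.41 (adjusted p = 8.2e-05), with 2 of 4 knockout saline arrays well above background. Ache, which splits acetylcholine, was higher by 0.98, and by 0.62 without a call (adjusted p = 0.167) when those arrays were left out. Maob, which breaks down monoamines, differed by −0.84. None of the 7 was called with LPS in either genotype.

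Of 33 receptor signalling partners, 10 were higher and 9 lower in knockout after saline (array 52.1% called), and 7 higher and 8 lower after LPS (array 48.4%). Without wild-type saline arrays 1 and 2 the saline counts were 6 and 5. The largest differences after saline were those of the adenylyl cyclases Adcy8 (2.04) and Adcy5 (−1.72), of Ppp1r1b, the phosphatase inhibitor downstream of dopamine receptors (−1.68), and of Plcb4, a phospholipase of Gq signalling (1.52). Without the 2 arrays Plcb4 was not called, at 1.04 (adjusted p = 0.173). Pde4b, which breaks down cyclic AMP, rose with LPS in knockout by 1.45 ± 0.27 (adjusted p = 0.00699) and was the only gene of that list called there. In wild type its LPS difference was −0.04 ± 0.27 (adjusted p = 1), and the difference of the 2 responses was 1.49 ± 0.38 (adjusted p = 0.346).

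Of 10 tested genes of nicotinic receptor assembly and modulation, 1 was higher and 1 lower in knockout after saline, with all arrays and without wild-type arrays 1 and 2 (array 52.1% and 36.5% called). S100a10, a partner of annexin A2 at the cell membrane, was higher by 1.90 ± 0.23, and Lynx1, a membrane-bound modulator of nicotinic receptors, was lower by −1.12. Lypd6, another protein of that family, differed by 2.02 without a call (adjusted p = 0.0582), and by 0.73 (adjusted p = 0.536) without the 2 arrays. Ly6h differed by 0.54.

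In the authors' deposited table of group means, 30 of the 71 receptor probes are listed, and 12 are in the authors' deposited table of fold changes. The authors' deposited table lists 0 receptor probes as changed at least 2-fold with LPS in knockout, and with LPS in wild type 1 up (Htr3a, 2.34-fold) and 2 down (Chrne, 2.21-fold, and Drd2, 2.10-fold). None of these 3 was called by limma in wild type. Between genotypes after saline the authors' deposited table lists 5 receptor probes up and 7 down in knockout, with Chrm1 at 36.1-fold up, Htr3a at 6.61-fold up, Htr1a at 5.36-fold down and Drd2 at 4.95-fold down.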

How the data were processed

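Amygdala RNA of 4 groups was measured on 16 single-colour arrays. Per the file headers, the deposited spot intensity was background-subtracted and detrended within each array, and Feature Extraction 9.5 was used per the submitters' processing notes. The authors' deposited tables hold log2 values averaged over each group and the linear fold change, a ratio of group means. In the same files 32 columns of detection calls per array were not used here.

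Control and outlier spots were left out. Values were log2 intensity minus the 75th percentile of each array. The RefSeq accession gave the name of 24844 probes, and the file's own name was kept for 16330. Probes well above background on at least 3 of 4 arrays of a group were kept (28347), and a gene's brightest kept probe stood for it. A probe bright in only 1 group could enter through that group, so its p-value is not independent of the filter. limma 3.58.1 (R 4.3.3, statmod 1.5.0) was fitted to 4 group means over all 16 arrays, with Benjamini-Hochberg adjustment over all kept probes and a threshold of 0.05. The code was tested on simulated data. The closest pair of arrays differed by a median of 0.12 (log2), so none repeated another.

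Values per array are given for genes called with LPS, for up to 6 genes with the highest and 6 with the lowest called differences between genotypes after saline, for genes with opposite calls, and for 12 main receptors. Genes of the other lists are named where called with LPS or among the 4 largest differences of a list. Spr is named beside the other tetrahydrobiopterin genes. The members and lists were chosen with earlier results of these data known. Counts cover all tested members, while values of some single genes are not reported here. Exon and UTR annotation of the probes was not used here. The number of arrays limits the precision. Alternatives covered background correction, scaling, filters, base composition, slide, replicate number and single arrays.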

Additional observations from a re-analysis of the deposited data

Results flagged for a closer look

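Of 80 groups of 4 arrays tested for a single array far from the others (20 receptor genes, 4 groups each), 7 were flagged, where chance flags about 1 in 20 groups. Knockout saline array 1 held 5 of the 7. On it Chrm4 lay at −0.38, beside −3.62 on the nearest array of its group. Drd4 lay at −2.21 beside −3.29, Chrm3 at −4.27 beside −3.83, Adra2a at 3.56 beside 2.72, and Htr2c at −1.88 beside 0.59. On the same array the mean level of the markers of cortex and basolateral amygdala was −0.50, where the other 3 arrays of the group lay between 0.35 and 0.57. The mean level of hypothalamus markers was −0.95 there and −1.87 to −1.50 on the other 3. The part of these markers in the receptor values was not tested. The other 2 flagged values were Chrm3 on wild-type LPS array 4, at −2.92 beside −3.74, and Adrb1 on knockout saline array 3, at 1.01 beside 1.26.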

How the results depend on the processing

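Of 557 alternative values for the 22 named genotype differences, 499 kept their direction and their side of the threshold, 52 kept only the direction, and 6 reversed. All 6 reversals came with the normexp background correction: Chrna5 0.68, Htr2a 1.26, Chrna10 0.68 and Htr1a 0.05 after saline, and Htr2a 0.19 and Chrna10 0.03 after LPS. The 22 values are those of the brightest probe of each gene, and of the called differences of other probes 5 of 9 after saline and 2 of 6 after LPS turned sign with the same correction. Chrnb1 is not among the 22, and its called difference after LPS turned sign as well, to 0.14. All these signs were read against 0, while the median of all probes with that correction was 0.51 after saline and 0.13 after LPS. The cause of the changes in sign was not tested. The count of called receptor probes with LPS in knockout (0) was 1 with quantile normalization, 1 with 1 probe per gene, 1 with base composition corrected and 3 with the slide as a fixed block. With LPS in wild type it was 3 without saline replicates 1 and 2 together. Between genotypes after saline (21) it was 7 among probes well above background on all 16 arrays and 12 with 1 probe per gene, where fewer probes were tested, and 13 without wild-type saline replicates 1 and 2, which leaves fewer arrays. After LPS (19) it was 7 among probes on all 16 arrays and 6 with the normexp correction. Leaving out single replicates gave 0 to 2 called with LPS in knockout, 0 in wild type, 17 to 22 after saline, 14 to 23 after LPS and 0 for the difference of the responses. With the replicate number as a block, 21 were called after saline and 18 after LPS, and 0 in each of the other comparisons; of the named values it ended only the call of Chrna7 after LPS. Arrays with the same number did not deviate together (correlations of −0.40 to 0.32 over 24 pairs), so the numbers were not taken as pairs. With the slide as a random block, 17 were called after saline and 15 after LPS. Dim probes limit the comparison, since 26 of 71 receptor probes were not tested.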
